A study of Mus musculus with 3 samples.

Results

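The BCL2 family decides whether a cell opens the outer membrane of its mitochondria and dies, and 10 of its genes were followed here in cardiac myofibroblasts, activated fibroblasts of the infarcted heart that contract and lay down matrix, as the cells lost and regained their hold on plastic. The members were chosen by name, through array probes whose RefSeq transcript maps to Bcl2, Bcl2l1, Mcl1, Bax, Bak1, Bid, Bcl2l11, Bmf, Bbc3 or Pmaip1. They are 10 of 15393 genes with a probe above background, and 12 probes measure them. The survival members are Bcl2, Bcl2l1 and Mcl1, and the other 7 promote death.

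Gene expression was measured on 1-colour Agilent mouse arrays, with 1 array for each of 3 states. Per the labels, the cells came from male C57BL/6J mice, given as 8 weeks old in the sample characteristics and 10 weeks old in the treatment protocol. Every group was made from hearts taken on day 3 of an infarct made by tying off the left anterior descending artery for good, and the cells that attached overnight and lacked CD45, a surface protein of leukocytes, were kept. Adherent cells were grown on plastic, non-adherent cells were then held in suspension, and re-adherent cells were returned from suspension to plastic. The study's methods give each state a week, so the effect of the state cannot be told apart from that of a longer time in culture. Each RNA sample mixed several hearts, and with 1 array per state there is no replicate error, no test and no p-value. The errors below are those the scanner software gave to single spots, which cover at most technical error within the arrays. They were nearly the same for all bright probes (median 0.204 over genes for suspension against adherent cells), so they are not a spread measured for each gene. Multiples of the error serve below as a yardstick and not as a test.

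BCL2, BCL-XL (the protein of Bcl2l1) and MCL1 hold the effectors BAX and BAK in check. The BH3-only proteins BID, BIM (Bcl2l11), BMF, PUMA (Bbc3) and NOXA (Pmaip1) bind the survival proteins, and some of them also activate the effectors, which then form pores that release cytochrome c. Anoikis is the form of this death that follows loss of attachment, and BIM and BMF are known for their part in it in epithelial cells. The study's methods ascribe the loss of cells in suspension to anoikis. By their cell counts most cells were lost there, so non-adherent and re-adherent RNA came from the cells that remained. Selection of these cells cannot be told apart from the effect of the state.

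Of the 10 members, 9 matched a table of RefSeq promoter windows for the mouse assembly GRCm38.p6, each running from 250 bases before to 50 bases after a transcript start, in 16 windows. Pmaip1 had no entry. The windows below belong to the members that differed most between states, Bmf, Bcl2l11 and Mcl1, and to Bbc3, which also holds a marked string. Where a gene had several windows, the window with a marked string was picked for display. Capitals mark TGTTTAC, the core letters bound by FOXO factors, or TGACGCA, on either strand. The 4 windows are written 5′ to 3′ on the strand of the gene.
Bmf, chr2:118549637-118549936, minus strand: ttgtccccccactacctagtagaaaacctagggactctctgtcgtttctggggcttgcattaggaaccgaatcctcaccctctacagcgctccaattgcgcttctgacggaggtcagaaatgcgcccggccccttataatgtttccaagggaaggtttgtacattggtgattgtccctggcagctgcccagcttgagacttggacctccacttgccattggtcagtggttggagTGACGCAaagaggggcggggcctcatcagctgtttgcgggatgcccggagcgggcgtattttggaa
Bcl2l11, chr2:128125788-128126087, plus strand: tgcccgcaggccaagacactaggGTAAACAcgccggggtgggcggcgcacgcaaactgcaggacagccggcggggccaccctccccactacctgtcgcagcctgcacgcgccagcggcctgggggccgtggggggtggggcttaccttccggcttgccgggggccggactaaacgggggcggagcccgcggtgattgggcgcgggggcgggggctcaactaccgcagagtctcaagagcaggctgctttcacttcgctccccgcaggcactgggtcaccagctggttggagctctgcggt
Mcl1, chr3:95658471-95658770, plus strand: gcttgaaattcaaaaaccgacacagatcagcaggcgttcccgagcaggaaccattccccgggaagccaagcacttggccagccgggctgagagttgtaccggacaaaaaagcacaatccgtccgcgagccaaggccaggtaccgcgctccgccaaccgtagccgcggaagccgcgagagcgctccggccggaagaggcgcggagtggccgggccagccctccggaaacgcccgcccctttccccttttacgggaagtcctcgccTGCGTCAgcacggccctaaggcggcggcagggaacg
Bbc3, chr7:16310011-16310310, plus strand: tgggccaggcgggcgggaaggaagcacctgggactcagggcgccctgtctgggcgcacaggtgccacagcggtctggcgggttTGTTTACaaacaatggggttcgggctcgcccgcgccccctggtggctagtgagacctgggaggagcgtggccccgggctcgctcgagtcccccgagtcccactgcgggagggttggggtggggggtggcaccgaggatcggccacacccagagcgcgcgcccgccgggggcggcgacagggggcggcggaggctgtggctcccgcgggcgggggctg

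The capitals in Bcl2l11 begin 227 bases before the start and those in Bbc3 167 bases before it. In Bmf they begin 16 bases before the start, and in Mcl1 they lie within the 50 bases after it. TGTTTAC was found in 2 of the 16 member windows and in 3.65% of all 32851 windows of the same length, and TGACGCA also in 2 of the 16 and in 2.12% of all windows. These were 2 of 8 letter strings searched, picked for display because they matched. Of the other strings, some of which share letters with these, TGAGTCA (5.20% of all windows), TGACGTCA (1.79%) and TGTTTAT (4.60%) matched no member. CACGTG (7.15%) matched Bbc3 and Bax, TTTGGC (12.9%) matched Bbc3, and TGACGTAC (0.207%) matched Bcl2. A match is a string of letters and not a measured binding site. The windows shown for Bmf, Bcl2l11 and Bbc3 are 1 each of 3, 2 and 3 in the table. Their other windows hold neither of the marked strings.

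Every member probe was well above background on all 3 arrays, so no member had to be given as a bound. Levels are written as relative signal, the background-subtracted signal of the spot divided by the 75th percentile of its array. That percentile was 651, 697 and 541 intensity units for adherent, non-adherent and re-adherent cells, and 58.1%, 59.9% and 53.9% of spots were well above background. Levels of different probes are not comparable with each other, so each gene is read across states only.

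Among the survival members, Mcl1 was higher in suspension and Bcl2 and Bcl2l1 moved little. Mcl1, whose short-lived protein restrains BAK and binds NOXA and BIM, had a relative signal of 21.5 in adherent, 50.6 in non-adherent and 26.1 in re-adherent cells. The non-adherent array stands above both others, which lie close together. The log2 difference was 1.23 between non-adherent and adherent cells (error 0.20), a 2.35-fold higher level, and -0.96 from suspension to re-adhesion. A second Mcl1 probe read 6.51, 12.4 and 6.94 in the same order, the same pattern at a 1.91-fold higher level in suspension, just under 2-fold.

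Bcl2, the founding survival gene of the family, had a relative signal of 0.921 in adherent, 1.14 in non-adherent and 1.08 in re-adherent cells. Its 3 values lie close together, and its log2 differences of 0.31, -0.08 and 0.23 (non-adherent minus adherent, re-adherent minus non-adherent, re-adherent minus adherent, each with error 0.20) are each under 2 times that error. Bcl2l1, which gives the survival protein BCL-XL, read 68.0, 71.4 and 100.2. The re-adherent array was the highest, by 0.56 on the log2 scale over adherent cells, while the other two differed by 0.07. The second Bcl2l1 probe read 0.803, 0.838 and 1.27, and gave log2 differences of 0.06, 0.60 and 0.66, so both probes place the higher level after re-attachment. The difference of Bcl2l1 from suspension to re-adhesion was 0.49, and it ranged from -0.11 to 0.54 under 12 processing alternatives. It turned negative with quantile normalization.

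**Figure D1:**
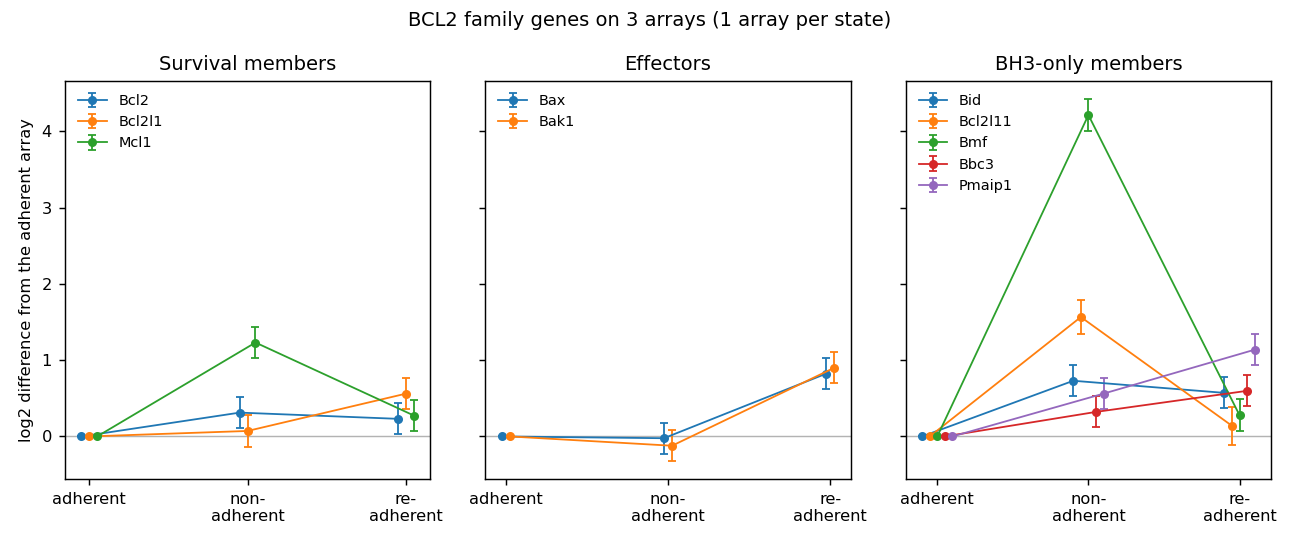
Log2 difference of each member from the adherent array (vertical axis), by state along the horizontal axis, 1 array per state, with bars for the technical error of the difference. Bmf reaches 4.21 in suspension and lies at 0.28 after re-attachment, Bcl2l11 and Mcl1 follow the same course at a smaller size, and Bax and Bak1 stay near 0 in suspension and lie at 0.82 and 0.90 after it.

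The effectors, the pore-forming members, did not differ in suspension by more than their errors and were higher after re-attachment. Bax had a relative signal of 29.4 in adherent, 28.9 in non-adherent and 52.0 in re-adherent cells. Bak1 read 15.3, 14.1 and 28.6. In these values the first 2 states are alike for both genes and the re-adherent array is higher. In suspension the log2 differences were -0.02 for Bax and -0.12 for Bak1 (error 0.20 each), of which the sign for Bax turned in 6 of 12 processing alternatives and that for Bak1 in 1. Re-adherent cells exceeded adherent cells 1.77-fold for Bax and 1.87-fold for Bak1, with log2 differences of 0.82 and 0.90 that stayed above 0 in every alternative. Against suspension, re-adherent cells had a log2 difference of 0.85 for Bax and 1.02 for Bak1, so Bak1 passed 2-fold and Bax did not. Bak1 fell below 2-fold in 5 of 12 alternatives, to between 0.66 and 0.89. For Bax the difference from suspension ranged from 0.26 to 0.86. It was lowest with the neighbouring spots subtracted, where suspension lay 0.31 above adherent cells.

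The BH3-only members held the greatest differences, and Bmf the greatest of all. Bmf, whose protein is kept at the actin cytoskeleton until it is released, had a relative signal of 0.187 in adherent, 3.46 in non-adherent and 0.226 in re-adherent cells. Its background-subtracted intensities were 121, 2409 and 122 units, so adherent and re-adherent cells had nearly the same signal and suspension stood far above both. Bmf was 18.5-fold higher in suspension than in adherent cells (log2 difference 4.21, error 0.21), and 0.442% of all genes had a larger rise. It was 15.3-fold lower again in re-adherent cells (log2 difference -3.93, error 0.21), the 143rd largest fall of 15393 genes. Re-adherent and adherent cells differed by 0.28 on the log2 scale (error 0.21), a sign that turned with scaling to the spike-in probes. On the same non-adherent array 10 of 11 macrophage markers were over 2-fold higher than in adherent cells, and their part in the differences of Bmf was not tested.

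Bcl2l11 encodes BIM, which binds all the main survival proteins and is known to be held back by adhesion and growth factor signalling. Its relative signal was 0.111 in adherent, 0.328 in non-adherent and 0.122 in re-adherent cells, on a dim probe with intensities of 72.2, 229 and 66.1 units. Suspension again stood above both attached states, which lay within 0.14 of each other on the log2 scale (error 0.25). The level was 2.96-fold higher in suspension (log2 difference 1.56, error 0.23) and 2.69-fold lower after re-attachment (-1.43, error 0.24). With a model-based background correction (normexp) in place of the scanner's subtraction these became 0.87 and -0.83, under 2-fold.

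Pmaip1 and Bbc3, both known targets of p53, were highest in re-adherent cells. Pmaip1, which encodes the MCL1-binding protein NOXA, had a relative signal of 0.738 in adherent, 1.09 in non-adherent and 1.62 in re-adherent cells. Each state was above the one before it, with log2 differences of 0.56 and 0.58 for the 2 steps and 1.14 over both (error 0.20 each). The last is a 2.20-fold higher level in re-adherent than in adherent cells that 3.81% of all genes exceeded. Under the 12 alternatives the first step of Pmaip1 ranged from 0.26 to 0.76. The second ranged from 0.09 to 0.59, and was lowest with the neighbouring spots subtracted. Bbc3 encodes PUMA and read 3.25, 4.06 and 4.91, with smaller steps of 0.32 and 0.28 and a difference of 0.60 over both. Only the difference over both steps is more than 2 times the error for Bbc3, and the second step turned negative in 2 of 12 alternatives. Those 2, no scaling and subtraction of the neighbouring spots, each moved the median of all genes for that step from 0.08 to -0.28. Bid, which links death receptors to mitochondria once caspase 8 has cut it, read 3.08, 5.10 and 4.57. It was higher by 0.73 in suspension and stayed 0.57 above the adherent level after re-attachment, so it did not share the return of Bmf and Bcl2l11.

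Set against all genes, 3 of 10 members were over 2-fold higher in suspension than in adherent cells (Mcl1, Bcl2l11 and Bmf), where 17.2% of 15393 genes were. No member was over 2-fold lower, where 14.7% of genes were. On re-adhesion 1 member was over 2-fold higher than in suspension (Bak1, against 15.6% of genes) and 2 were over 2-fold lower (Bcl2l11 and Bmf, against 16.3%). Between re-adherent and adherent cells 1 member was over 2-fold higher (Pmaip1, against 4.84%) and none was lower (4.9% of genes). With 10 members, counts of 1 to 3 do not set the family apart from these backgrounds, and what stands out is the size of the change of Bmf.

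All 10 members lay above 0 in re-adherent minus adherent cells, from 0.14 for Bcl2l11 to 1.14 for Pmaip1, where 56.1% of all genes did. Scaling to spike-in probes turned the sign for Bcl2, Mcl1, Bcl2l11 and Bmf, and it moved the median of all genes in this pair from 0.06 to -0.37, and that in suspension from -0.07 to -0.37, a constant shift of every gene in a pair. The signs of Bcl2 and Bcl2l11 also turned with no scaling and with the neighbouring spots subtracted. That of Bcl2l11 turned with the authors' matrix values as well, so it turned in 4 of 12 alternatives and that of Bcl2 in 3. The 6 others, Bcl2l1, Bax, Bak1, Bid, Bbc3 and Pmaip1, stayed above 0 under every alternative. In the same pair 5 of 11 macrophage markers were over 2-fold higher (median 0.92), among them C1qa (1.91) and Csf1r (1.37), and 5 of 8 endothelial markers were over 2-fold lower, and their part in the members' differences was not tested. The median log2 difference of the 3 survival members and of the 7 death-promoting members was 0.31 and 0.56 in suspension, beside -0.07 for all genes. From suspension to re-adhesion these medians were -0.08 and 0.28, beside 0.08, and between re-adherent and adherent cells 0.27 and 0.60, beside 0.06. Within each class the members were spread more widely than the classes were apart. In suspension survival members ranged from 0.07 to 1.23 and death-promoting members from -0.12 to 4.21.

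**Figure D2:**
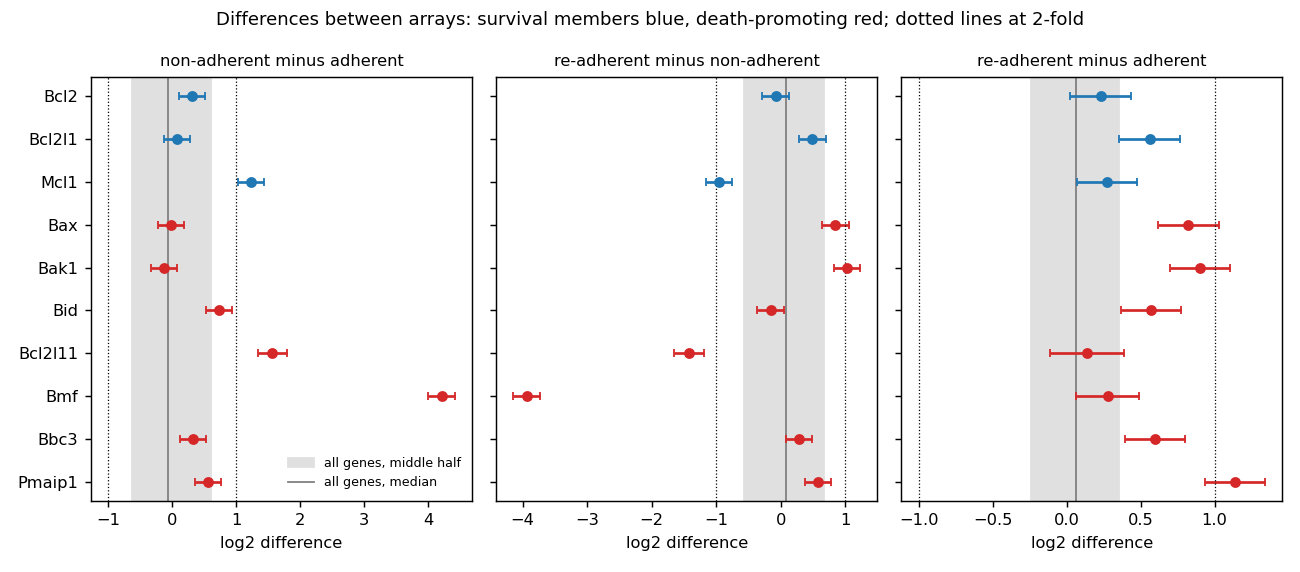
Log2 difference (horizontal axis) of each member in each pair of arrays, with its technical error, survival members in blue and death-promoting members in red. The grey band runs from the 25th to the 75th percentile of the 15393 genes, and dotted lines mark 2-fold. Bmf is far outside the band in both steps, and Bcl2, Bcl2l1, Bax, Bak1, Bbc3 and Pmaip1 lie inside it in suspension.

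The balance between a death-promoting and a survival member can be read as the difference between their log2 changes, which no constant scaling of an array alters. There are 21 such pairs. Bmf gained on Mcl1 by 2.98 in suspension (error 0.29) and changed against it by -2.98 on re-adhesion, although Mcl1 was itself higher in suspension. Against Bcl2, which was nearly level, the values of Bmf were 3.90 and -3.85. Bcl2l11 gained on Bcl2 by 1.25 (error 0.30), but on Mcl1 by only 0.33 (error 0.30), a sign that normexp turned to -0.33. The effectors fell behind Mcl1 in suspension, Bax by -1.25 and Bak1 by -1.35 (error 0.29 each). They were ahead of it on re-adhesion by 1.80 and 1.98.

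Of the 21 pairs, 6 lay above 0 and 4 below 0 by more than 2 errors in suspension, so the balance moved in both directions, depending on the pair. From suspension to re-adhesion the counts were 8 above and 6 below. Between re-adherent and adherent cells 5 pairs lay above 0 by more than 2 errors and none below. Bax against Bcl2 (0.59) is among the 5, and it ranged from 0.36 with quantile normalization to 0.70 with the neighbouring spots subtracted. The largest shifts over both steps were those of Pmaip1, by 0.91 against Bcl2 and by 0.86 against Mcl1 (error 0.29 each). Bmf and Mcl1 were close to their starting balance, with a shift of 0.004 (error 0.29). That shift ranged from -0.03 with the neighbouring spots subtracted to 0.27 with quantile normalization. The pairs share members, so the 21 are not independent values, and pairs in 2 steps share the non-adherent array.

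BCL2 family genes outside the 10 members were given by a list of their own. Bcl2a1d, a survival gene prominent in blood cells, had a relative signal of 20.2 in adherent, 130 in non-adherent and 17.8 in re-adherent cells, log2 differences of 2.69 and -2.87 for the 2 steps. Its near-identical copies Bcl2a1a and Bcl2a1b had no mapped probe, so the signal may be shared with them. Bcl2l2, which gives the survival protein BCL-W, was lower by -0.77 in suspension and 0.65 higher again on re-adhesion. Bok, a BAX-like gene, was 2-fold lower in suspension (-1.06) and higher on re-adhesion (1.40), and Bad, a BH3-only gene controlled by phosphorylation, differed by 0.23 and 0.38. Bik, another BH3-only gene, was not well above background in adherent cells and at least 4.23-fold higher in suspension, then lower by -1.08 in re-adherent cells. Neither Bcl2l10 nor Hrk nor Bcl2l14 had a probe above background in any state.

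Among 7 more distant BCL2 relatives above background, Bnip3l, a mitophagy receptor, was over 2-fold higher in suspension (log2 difference 1.20), and its 4 probes ranged from 1.17 to 1.34. Bcl2l15 was at least 3.55-fold lower in suspension, where it was not well above background, and at least 2.71-fold higher on re-adhesion, by the only of its 3 probes above background on any array. The other 5, Bcl2l12, Bcl2l13, Bnip1, Bnip2 and Bnip3, lay between -0.63 and 0.47 in suspension.

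Downstream of the members, none of 11 apoptosome and caspase genes was over 2-fold lower in suspension, where 14.7% of all genes were. Over 2-fold higher was 1 of the 11, where 17.2% of all genes were. It was Casp9, the initiator caspase of the mitochondrial pathway, with log2 differences of 1.37 and -0.95 for the 2 steps. None of 5 caspase inhibitor genes passed 2-fold in suspension, and Birc3, which encodes cIAP2, was lower on re-adhesion by -1.12 after a difference of 0.71. Of 9 death receptor genes above background, Tnfrsf10b, the mouse TRAIL receptor gene, was lower in suspension by -1.94 and higher on re-adhesion by 2.55. Its ligand gene Tnfsf10 was well above background in suspension only, at least 3.00-fold above adherent cells, and Fasl was not above background on any array.

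Upstream, most genes of adhesion-dependent survival signalling were lower in suspension, with a list median of -0.57 beside -0.07 for all genes. On re-adhesion 7 of 13 were over 2-fold higher, where 15.6% of all genes were. In suspension 4 were over 2-fold lower, where 14.7% of all genes were, and none was over 2-fold higher. The 4 were Bcar1 (-2.44), an adaptor of focal adhesions, the fibronectin receptor genes Itga5 (-1.55) and Itgb1 (-1.35), and Ilk (-1.09), a scaffold that links integrins to actin. They returned by 2.28, 1.16, 1.28 and 1.38, so their course was opposite to that of Bmf. Of the 13, 3 lay above 0 in suspension. Among them Pxn was higher by 0.92 and then lower by -0.65 on re-adhesion.

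A further list held 11 genes tied to death on detachment, without separating those that promote it from those that oppose it. Of these, the kinase genes Dapk2 (2.72) and Dapk1 (2.16) were over 2-fold higher in suspension, where 17.2% of all genes were. Both were lower on re-adhesion, by -3.33 and -2.08. Tle1, a corepressor gene, was lower by -1.30 and then higher by 1.57. Dynll1 and Dynll2 encode the dynein light chains that are known to hold BIM and BMF at the cytoskeleton. Dynll1 had log2 differences of -0.60 and 1.25 for the 2 steps. The 2 Dynll2 probes disagreed in suspension, at -0.15 and -1.06 (Dynll2 is named for its partner, after its values were seen). Sik1, also named after its values were seen, was over 2-fold lower in re-adherent than in adherent cells (-1.06).

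Of 9 regulators of the BH3-only genes, Jun (1.37) and Foxo1 (1.03, close to the 2-fold line) were over 2-fold higher in suspension, where 17.2% of all genes were. None was over 2-fold lower, where 14.7% of all genes were. Jun encodes an AP-1 subunit and Foxo1 a factor that AKT keeps out of the nucleus, and a second Foxo1 probe gave 0.69. Both were lower on re-adhesion, by -1.12 and -0.84. Trp53, which encodes p53, differed by -0.66 in suspension and was over 2-fold higher on re-adhesion (1.09). No gene of 4 in MCL1 turnover passed 2-fold in any pair, and their medians were -0.10, 0.07 and -0.02, so the course of Mcl1 was not shared by this list.

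By the distance of the first 2 log2 differences over 13475 genes well above background on all 3 arrays, the genes most like Bmf were Foxo6 (distance 0.042), Klra8 (0.215) and Cbr2 (0.259). Foxo6 had log2 differences of 4.22 and -3.89, beside 4.21 and -3.93 for Bmf. Klra8 belongs to a family of near-identical receptor genes of natural killer cells, so its probe may read several of them. The likeness rests on 3 arrays and describes them only.

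Markers of cell types also differed between the states. Of the 5 myofibroblast markers, 4 were over 2-fold lower in suspension, among them Acta2, the smooth muscle actin gene, with a log2 difference of -6.64. The summed relative signal of the 5 was 1636 in adherent, 29.9 in non-adherent and 1629 in re-adherent cells, so the label of myofibroblast held for the attached states, and in suspension contractile markers were nearly gone while Postn stayed (-0.12). All 9 fibroblast markers were well above background on every array, with sums of 1103, 884 and 831 that rest mainly on collagen genes. They moved in opposite directions in suspension, where 4 were over 2-fold lower, such as Thy1 (-3.50) and Tcf21 (-1.75), and 2 over 2-fold higher, Lum (3.56) and Dcn (1.69), with a median of -0.70. Of 11 macrophage markers with a probe, 10 were over 2-fold higher in suspension, with sums of 171, 981 and 328 and a median of 2.68. The largest was Mrc1 at 3.58, and Ptprc, the gene of CD45 by which leukocytes had been removed, read 0.55, 3.50 and 0.98.

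The exception among macrophage markers was Itgam, whose brightest probe gave -0.84 while its other 2 gave 1.96 and 1.63. Of 8 endothelial markers, 5 were over 2-fold higher in suspension, with a median of 1.85 and the largest difference for Cldn5 (3.77). Their sums of 16.5, 22.0 and 19.9 rest mainly on 1 probe of Kdr (14.5, 11.4 and 19.1), which gave -0.35 in suspension where the second Kdr probe gave 1.96. In re-adherent cells 5 of the 8 were over 2-fold below adherent cells in measured signal, among them Emcn, Cldn5 and Tie1, which were not well above background there (for Tie1 the bound is at least 1.71-fold). Among 3 neutrophil markers above background 1 was over 2-fold higher in suspension, and 2 were over 2-fold lower in re-adherent than in adherent cells. The 5 mural markers had sums of 1.49, 0.629 and 0.489. Cspg4 (-2.06) and Myh11 (at least 16.3-fold) were lower in suspension, and Kcnj8 (at least 4.10-fold) and Abcc9 (at least 5.62-fold) higher. The lymphocyte markers Cd3d, Cd79a and Ncr1 and the cardiomyocyte markers Actn2, Ryr2 and Pln were not well above background on any array. Others of these lists were: Cd3e read 1.46, 1.30 and 1.83, the troponin gene Tnnt2 read 0.911, 1.37 and 3.04, Myh6 was above background throughout and Tnni3 in suspension. In bulk RNA, fewer cells of a type and less RNA per cell cannot be told apart, and the part of macrophage and endothelial RNA in the differences of Bmf, Bcl2l11, Mcl1 and Bcl2a1d was not tested.

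**Figure D3:**
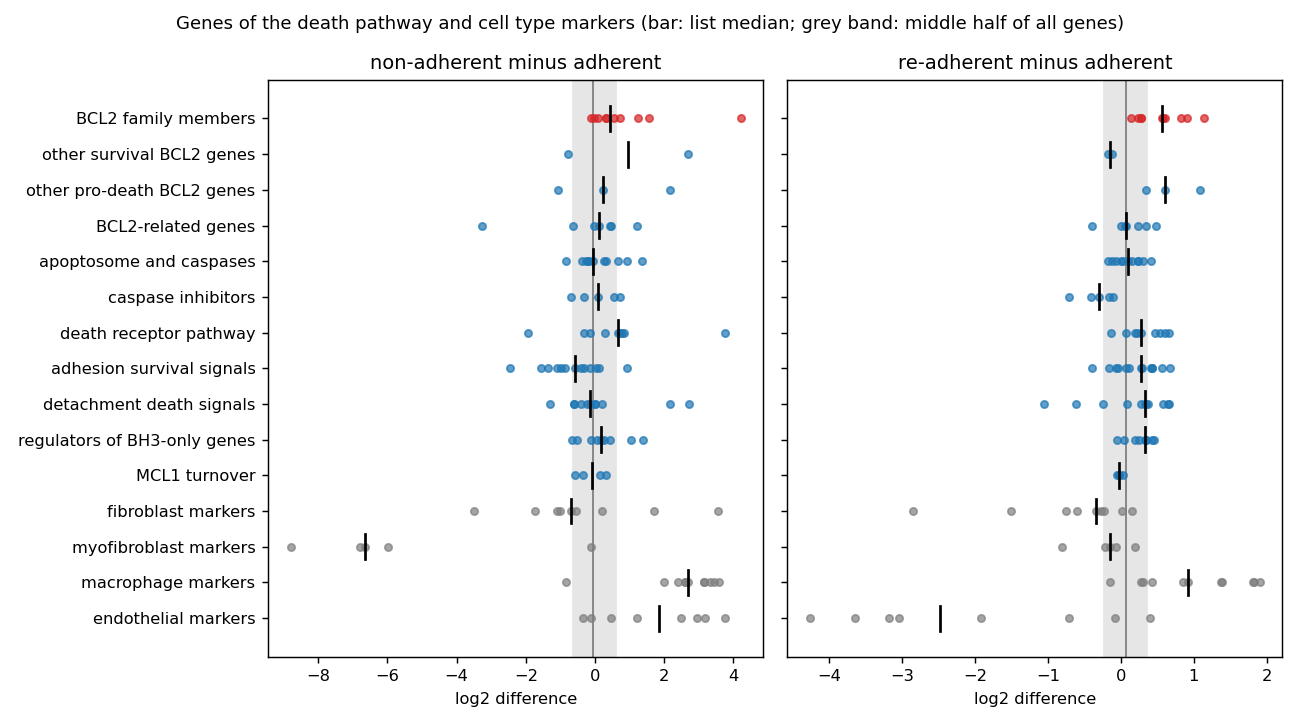
Log2 difference of every gene (points) in the members and in 14 lists of pathway genes and cell type markers, for suspension (left) and for re-adherent against adherent cells (right); bars are list medians and the grey band the 25th to 75th percentile of all genes. By list median, myofibroblast markers lie lowest and macrophage markers highest in suspension.

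The differences were recomputed under 12 processing alternatives. The course of Bmf held under each, with 3.65 to 4.38 in suspension and -4.30 to -3.35 on re-adhesion. Bcl2l11 ranged from 0.87 to 1.87 and Mcl1 from 0.93 to 1.55 in suspension, so both stayed higher and each passed below 2-fold in at least 1 alternative. For re-adherent against adherent cells, Pmaip1 ranged from 0.70 to 1.22, below 2-fold in 4 of the 12, with Bak1 from 0.47 to 0.99 and Bax from 0.39 to 0.91. The spots around each member were also compared. Their median log2 difference in suspension ran from -0.34 to -0.06 across members, beside -0.31 for all spots. In that pair the surroundings of the members differed far less than Bmf, Bcl2l11 or Mcl1 did. From suspension to re-adhesion it ran from 0.24 to 0.59, beside 0.34 for all spots. Around Bax it was 0.59, around Bbc3 0.49 and around Pmaip1 0.48. Less these surroundings, the re-adhesion differences of the 3 genes were 0.26, -0.22 and 0.09. The same subtraction moved the median of all genes on re-adhesion from 0.08 to -0.28, and the 3 genes stayed above that median.

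**Figure D4:**
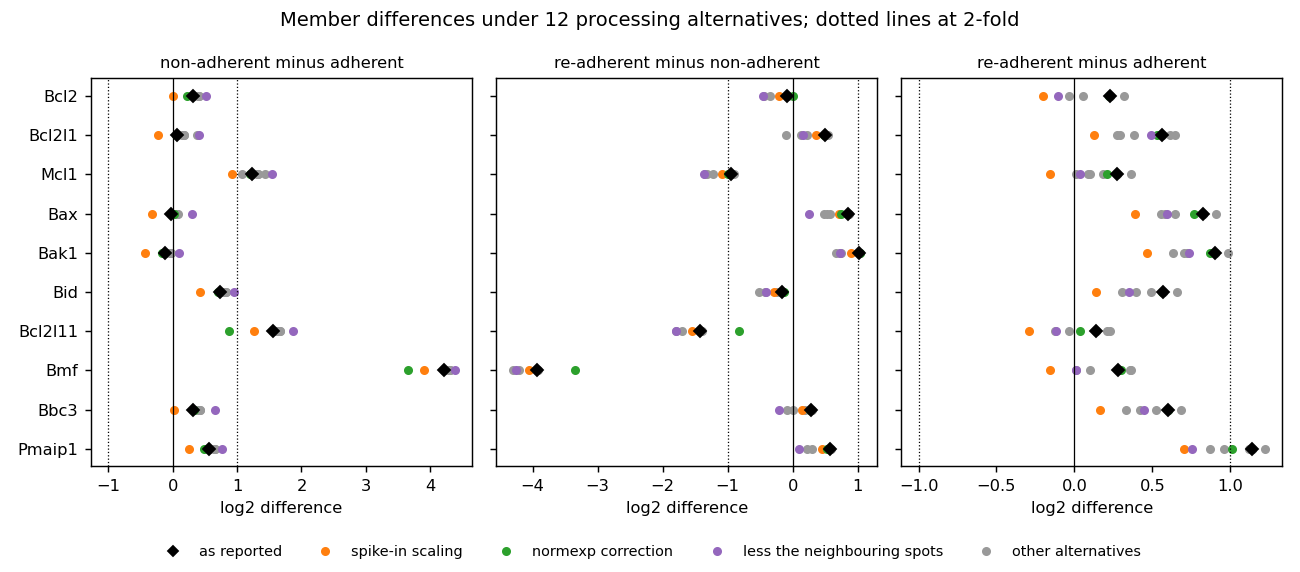
Log2 difference of each member (horizontal axis) as reported (black diamonds) and under 12 processing alternatives (circles), for each pair of arrays; dotted lines mark 2-fold. Bmf stays between 3.65 and 4.38 in suspension, and Bcl2, Mcl1, Bcl2l11 and Bmf cross 0 in re-adherent minus adherent cells.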

How the data were processed

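Gene expression was measured on 3 one-colour Agilent mouse arrays, which lay on the same slide. The authors deposited the output of Agilent Feature Extraction 10.10.1.1, intensities of single spots background-subtracted and spatially detrended on a linear scale, and a matrix of intensity values that equalled this signal times a constant per array (1.52, 1.52 and 1.62). Of 62976 spots, 59305 were not controls. Those flagged as outliers were left out (154, 180 and 175), and none was saturated. The log2 signal was reduced by the 75th percentile of its array. Transcript names were matched without version to RefSeq symbols of GRCm38.p6, which named 27229 of 55665 probes, and a gene was read from its probe of highest mean among those well above background on at least 1 array. The array design names an earlier assembly, so only the promoter windows carry coordinates.

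Errors of differences add the 2 spot errors of the software in quadrature. A fold against a probe not well above background is a lower bound against its own signal or, if higher, that array's lowest signal well above background, and depends on the scaling. The number of arrays limits the precision. The members and gene lists were chosen with earlier results of these data known. The text names every member, other BCL2 family genes, and in each pathway list up to 4 genes over 2-fold in any pair, taken by size. Likeness to Bmf was given because it was over 4-fold different and above background on all 3 arrays. The normexp alternative (limma 3.58.1, R 4.3.3, offset 50) used median spot signals, since no mean signal was given, and spike-in scaling used control spots above background on all 3 arrays. Scripts ran in Python 3.11.15 with pandas 2.3.3 and numpy 2.4.6 and were tested on simulated data.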

Additional observations from a re-analysis of the deposited data

How the results depend on the processing

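Of 360 member differences recomputed under 12 alternatives, 273 moved by less than their technical error and 87 by more, and of 156 counts and medians 126 stayed close to the values reported. No paired analysis was possible because there was a single array per group, and for the same reason leaving out a replicate was not run.

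Members over 2-fold higher in suspension numbered 3, 2 with spike-in scaling or normexp, 4 at 1.5-fold and 1 at 4-fold. On re-adhesion the 1 member higher became 0 with the authors' matrix values, quantile normalization, no scaling, spike-in scaling, subtraction of the neighbouring spots or a 4-fold threshold, and 2 at 1.5-fold. The 2 lower members became 1 with normexp and at 4-fold, and 3 with the authors' matrix values, quantile normalization, no scaling, spike-in scaling, neighbouring spots or 1.5-fold. For re-adherent against adherent cells the 1 higher member became 0 with the authors' matrix values, no scaling, spike-in scaling, neighbouring spots or 4-fold, and 4 at 1.5-fold. The survival median in suspension became 0.010 with spike-in scaling and 0.52 with neighbouring spots, and the death-promoting median 0.26 with spike-in scaling. On re-adhesion the survival median became -0.36 with the matrix values, -0.45 with no scaling and -0.46 with neighbouring spots, and the death-promoting median 0.0014, -0.088 and -0.22 in the same order. Between re-adherent and adherent cells the survival median became 0.0084 with no scaling, -0.16 with spike-in scaling and 0.037 with neighbouring spots, and the death-promoting median 0.33 with no scaling and 0.17 with spike-in scaling.

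The median of all genes in suspension moved from -0.07 to -0.37 with spike-in scaling and to 0.20 with neighbouring spots. On re-adhesion it moved from 0.08 to -0.20 with the matrix values, and to -0.28 with no scaling and with neighbouring spots. Why normexp lowered Bcl2l11 was not tested.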
